A study of Mus musculus with 4 samples.

Results

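Transcripts of the mitochondrial genome were followed across 4 groups of the mouse erythroblast line G1E, namely mt-Nd1, mt-Nd2, mt-Nd4, mt-Rnr1 and mt-Tp. They were taken as the rows with these symbols in any of the 6 tables that the authors deposited, 1 table for each pair of groups, and all 5 of the 5 symbols were found among the 2982 genes with a row. The mitochondrial genome has 37 annotated genes, of which 8 have a row in some table: these 5 and mt-Cytb, mt-Nd5 and mt-Nd6. G1E cells derive from mouse cells without GATA-1, the zinc finger factor that drives red cell maturation. The G1E control group carries no added form of GATA-1 per the labels, and the others carry wild-type GATA-1 (GATA-1 WT) or a mutant, GATA-1 V205M or GATA-1 2RA. The V205M change is known to impair contact with the cofactor FOG-1, while what 2RA changes cannot be read from the labels. All 4 groups received β-estradiol induction (written β-estrodiol in the labels), at a dose and for a time that the labels leave out, and each group is 1 sample of 1 cell line.

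The mitochondrial genome is a small circle present in many copies per cell. Both of its strands are transcribed into long precursors, which are cut mainly at the tRNAs that lie between the other genes, so neighbouring transcripts start from common precursors and reach different levels through processing and decay. Its protein genes all encode subunits of the respiratory chain and ATP synthase, its rRNAs build the mitochondrial ribosome, and its tRNAs decode the mitochondrial code. Maturing red cells use mitochondria to make heme and clear them by the end of maturation. In bulk RNA, fewer mitochondria per cell and less RNA per mitochondrion cannot be told apart.

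The 3 messenger RNAs encode core membrane subunits of complex I, the NADH dehydrogenase that starts electron transport. On GRCm38, mt-Nd1 lies on the mitochondrial chromosome at chrM:2751-3707, mt-Nd2 at chrM:3914-4951 and mt-Nd4 at chrM:10167-11544, all on the plus strand. Their ends are shown because they differ in how the reading frame closes, and because each abuts or overlaps a tRNA at which the precursor is cut. The last 60 bases are given from GENCODE M21, with the stop codon, or the part of it that the genome encodes, in capitals.
mt-Nd1 end (chrM:3648-3707): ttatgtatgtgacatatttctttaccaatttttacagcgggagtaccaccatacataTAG
mt-Nd2 end (chrM:4892-4951): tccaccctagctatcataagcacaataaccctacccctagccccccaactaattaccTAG
mt-Nd4 end (chrM:11485-11544): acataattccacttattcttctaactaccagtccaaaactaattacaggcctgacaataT
In mt-Nd1 and mt-Nd2 the stop codon is whole, and each gene shares its last 2 bases with the tRNA gene that follows, mt-Ti and mt-Tw. The mt-Nd4 gene is 1378 bases long, 1 base more than a whole number of codons, and ends in a single T, 1 base before mt-Th. Such an incomplete stop codon is known to be completed when the cut RNA is polyadenylated.

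The other genes make no protein. The small ribosomal RNA gene mt-Rnr1 (chrM:70-1024, plus strand) stands near the start of the heavy-strand precursor, 1 base after mt-Tf and directly before mt-Tv, and mt-Tp encodes the proline tRNA at chrM:15356-15422 on the minus strand, directly beside mt-Tt on the plus strand. The first 60 bases of the rRNA and the whole tRNA gene are printed 5′ to 3′, the tRNA with its anticodon in capitals, to show how short the tRNA target is for counting reads.
mt-Rnr1 start (chrM:70-129): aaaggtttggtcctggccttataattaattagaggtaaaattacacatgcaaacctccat
mt-Tp whole (chrM:15356-15422): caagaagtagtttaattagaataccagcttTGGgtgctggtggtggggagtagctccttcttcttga
The mt-Tp gene has 67 bases against 955 for mt-Rnr1 and 957 for mt-Nd1. Its G content of 29.9% compares with 8.0% to 16.1% in the other 4 genes, a difference that goes with the strand: mt-Nd6, the only protein gene on the minus strand, has 28.1%. The sources used here do not state counting by strand, so reads of mt-Tp cannot be told apart from precursor reads of the opposite strand that span it.

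Levels are the authors' mean read counts after division by a size factor for each count column (scaled reads). From the deposited values, whole reads were recovered for every level of every group, and the G1E control and GATA-1 V205M each proved to be the mean of 2 count columns, while GATA-1 WT and GATA-1 2RA have 1. The sources used here do not say whether these columns are separate cultures or repeat runs, so they are shown as a spread and not used as replicates. The listed genes summed to 276064 to 2178397 reads per count column. All 7 erythroid markers had a row, and Klf1, an erythroid transcription factor, stood at 462, 1418, 381 and 382 scaled reads in the G1E control and the WT, 2RA and V205M forms of GATA-1. Of the 6 mast cell markers 4 had a row, with Cpa3 at 2795, 0.630, 5.0 and 14.6, Ms4a2 at 139.97, 0.630, 2.14 and 383, Hdc at 29.5, 1.89, 33.6 and 121 and Kit at 2429, 179, 2218 and 1440 in that order. All 4 were lowest with GATA-1 WT, while the mutants differed from marker to marker. None of 4 megakaryocyte markers had a row. Gata1 itself stood at 153, 2652, 1421 and 613. The GATA-1 groups thus differed in Gata1 level as well as in its form, and the parts of level and form cannot be told apart. Each table lists only genes that differed over 2-fold with an adjusted p below 0.01, so a level is known only where a gene passed in some pair, and that the 8 genes differ in at least 1 pair follows from how the tables were made.

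mt-Nd1 had the highest level of the 8 mitochondrial genes with a row (29 have none, among them mt-Co1, mt-Co2, mt-Co3 and mt-Rnr2), with 57753 scaled reads in the G1E control (62026 and 53481 in its count columns), 14715 with GATA-1 WT, 40764 with GATA-1 2RA and 28279 with GATA-1 V205M (28424 and 28134). The control was highest and GATA-1 WT lowest, with no overlap between any count columns of different groups. By level it ranked 1st of 2466 genes with a level in the control, 10th of 2434 with GATA-1 WT, 2nd of 1931 with GATA-1 2RA and 3rd of 2233 with GATA-1 V205M.

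mt-Nd2 had 4861 scaled reads in the control (5277 and 4446), 1827 with GATA-1 WT, 2288 with GATA-1 2RA and 1573 with GATA-1 V205M (1573 in each column). Again the control was highest, but here GATA-1 V205M and not GATA-1 WT was lowest. The level with GATA-1 WT exceeded that with GATA-1 V205M 1.16-fold (95% counting interval 1.11 to 1.22). The widest ratio between 2 columns of a group for these genes was larger, 1.19-fold for mt-Rnr1 in the control. The control columns also differed over listed genes at large, by a median log2 ratio of 0.18 over 431 genes with 500 or more reads. In GATA-1 V205M that median was 0.0096 over 643 genes. Rescaling to the genes with a level in all 4 groups turned the order of GATA-1 WT and GATA-1 V205M in each of 3 ways tried, so this order is not set.

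mt-Nd4 had 2341 scaled reads in the control (2377 and 2306), 646 with GATA-1 WT, 1135 with GATA-1 2RA and 848 with GATA-1 V205M (909 and 786). Its order was that of mt-Nd1, with the columns of GATA-1 V205M between the other GATA-1 forms. mt-Rnr1 stood at 4421 in the control (4810 and 4032), 1400 with GATA-1 WT, 1182 with GATA-1 2RA and 1738 with GATA-1 V205M (1732 and 1744). The rRNA thus differed from the messenger RNAs in that GATA-1 2RA was lowest, although GATA-1 WT was only 1.18-fold (95% counting interval 1.11 to 1.26) above it, again within the widest spread between columns, and 2 of 3 rescalings turned this order. For mt-Tp a level is known in GATA-1 WT, 9.45 scaled reads from 15 reads, and with GATA-1 2RA, 54.3 scaled reads from 76 reads, and in no other group. All counting intervals here cover counting error only and say nothing of the spread between cultures.

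**Figure D1:**
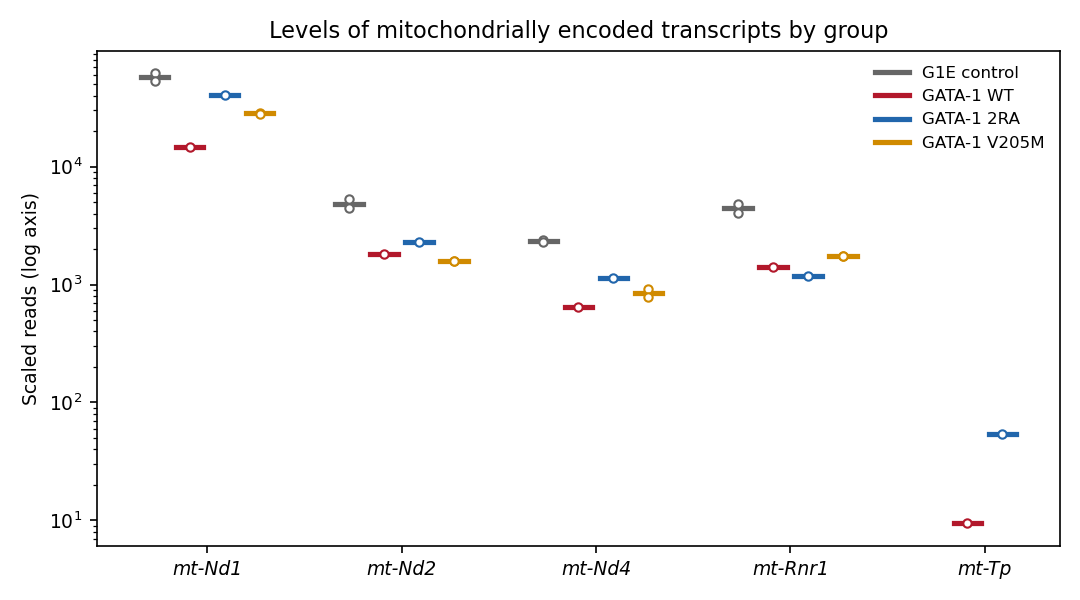
Scaled reads (log axis) of the 5 mitochondrial transcripts in each group, as the authors' mean (horizontal lines) and single count columns (open circles; where a group has 1 column the circle sits on the line). The control is highest for mt-Nd1, mt-Nd2, mt-Nd4 and mt-Rnr1, and mt-Tp has a level in 2 groups only, 9.45 and 54.3.

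Per length, the complex I messages stood at unlike levels. In the control, mt-Nd1 had 60348 scaled reads per kilobase, mt-Nd2 4683, mt-Rnr1 4629 and mt-Nd4 1699. In GATA-1 WT the levels per kilobase were 15376 for mt-Nd1, 1760 for mt-Nd2, 1466 for mt-Rnr1, 469 for mt-Nd4 and 141 for mt-Tp. In GATA-1 2RA mt-Tp had 810 per kilobase, next to 824 for mt-Nd4. Levels per kilobase of mt-Nd1 exceeded those of mt-Nd2, mt-Nd4 and mt-Rnr1 in every group.

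GATA-1 WT against the G1E control asks what differs when functional GATA-1 is present, and the mitochondrial transcripts were lower. The table lists 7 of the 37 mitochondrial genes, all lower and none higher, where 4.86% of the 12931 tested genes were listed as lower and 8.17% as higher. The tables do not show how many of the 37 were tested. The median log2 change of the 7 (on levels plus 1 scaled read) was -1.63, and that of all 1685 listed genes 1.23. mt-Nd1 was 3.92-fold (95% counting interval 3.87 to 3.98) lower, mt-Nd4 3.62-fold (3.38 to 3.89), mt-Rnr1 3.16-fold (3.01 to 3.31) and mt-Nd2 2.66-fold (2.55 to 2.78). The authors' deposited table gives adjusted p-values of 1.54e-16 for mt-Nd1, 5.21e-34 for mt-Nd4, 9.81e-07 for mt-Rnr1 and 7.55e-06 for mt-Nd2. These may treat the count columns of the control as replicates, and there is no replicate check of the group itself. An edgeR quasi-likelihood fit on the recovered reads, which rests on the count columns alone, called 89.9% of the genes it tested in this pair, 75.9% for GATA-1 2RA and 77.7% for GATA-1 V205M against the control, 86.1% for GATA-1 V205M against GATA-1 WT and 78.3% between the mutants, so a call there sets no gene apart.

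The other 3 listed mitochondrial genes, each with a level in these 2 groups alone, went the same way. mt-Cytb, the cytochrome b of complex III (chrM:14145-15288), had 14581 scaled reads in the control (15468 and 13694) against 4715 with GATA-1 WT, 3.09-fold (95% counting interval 3.01 to 3.17) lower. mt-Nd5 (chrM:11742-13565), a further complex I subunit, stood at 1952 (2023 and 1880) and 663, 2.94-fold (2.74 to 3.16) lower. mt-Nd6 (chrM:13552-14070), the complex I subunit on the minus strand, stood at 804 (851 and 758) and 361, 2.23-fold (2.02 to 2.46) lower. Count columns of the groups did not overlap for any of these genes. The authors' deposited table gives adjusted p-values of 3.19e-17, 8.64e-25 and 1.69e-10 for them. The smallest and largest of the 7 changes thus belonged to complex I messages, mt-Nd6 and mt-Nd1. mt-Nd5 and mt-Nd6 overlap by 14 bases on opposite strands, so the split of reads there is uncertain.

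GATA-1 V205M against the control gave 4 mitochondrial genes in the table, all lower, against 3.32% of tested genes listed as lower and 4.83% as higher. mt-Nd2 was 3.09-fold (95% counting interval 2.97 to 3.22) lower, mt-Nd4 2.76-fold (2.61 to 2.92), mt-Rnr1 2.54-fold (2.44 to 2.65) and mt-Nd1 2.04-fold (2.02 to 2.06). The authors' deposited table gives adjusted p-values of 4.52e-12 for mt-Nd2, 4.15e-36 for mt-Nd4, 1.22e-07 for mt-Rnr1 and 1.16e-08 for mt-Nd1. mt-Nd1, lowered most in GATA-1 WT, was thus lowered least here, just past the authors' limit of 2-fold. With the second count column of the control alone its log2 change was -0.92, short of that limit, and with the levels rescaled to the genes present in all groups it was -1.24 to -1.50. Their median log2 change was -1.41, and that of all 1054 listed genes 1.11.

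GATA-1 2RA against the control gave 3, all lower, against 2.61% of tested genes listed as lower and 4.86% as higher, with a median log2 change of -1.09 where that of all 965 listed genes was 1.23. mt-Rnr1 was 3.74-fold (95% counting interval 3.54 to 3.95) lower, mt-Nd2 2.12-fold (2.04 to 2.21) and mt-Nd4 2.06-fold (1.94 to 2.19). The authors' deposited table gives adjusted p-values of 2.47e-08, 0.000818 and 4.19e-12 for these. mt-Nd1 was not listed, at 70.6% of the control level. Both messages lay near the 2-fold limit: the counting interval of mt-Nd4 reaches across it, and with the second count column of the control alone the log2 change of mt-Nd2 was -0.96, short of it. All comparisons with the control share its single sample, so they are not independent of each other, and a high control level would lower every one of them.

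**Figure D2:**
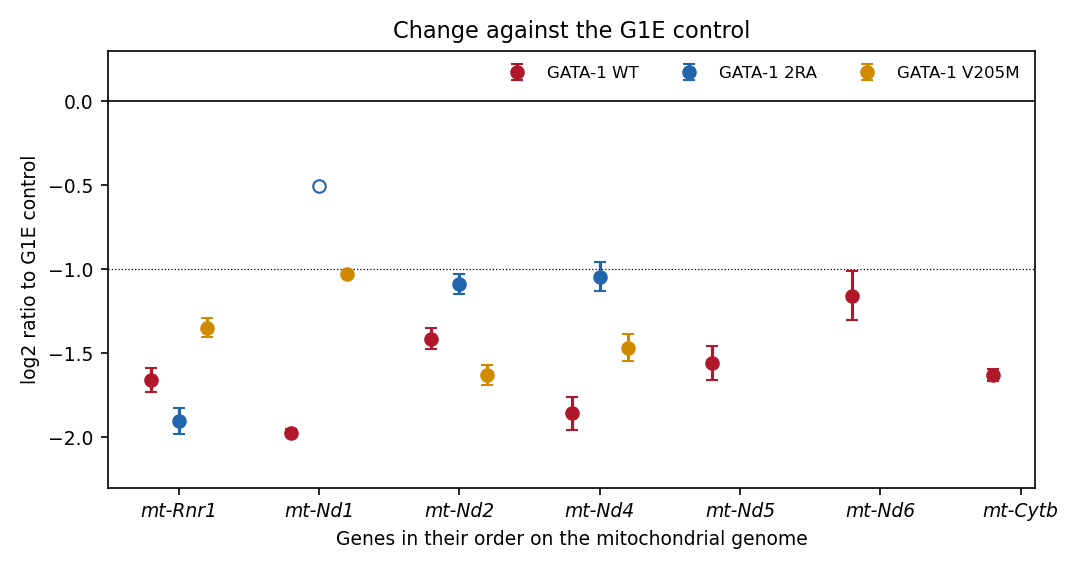
The log2 ratio of each group's level to the G1E control level, with 95% counting intervals (bars, hidden by the marker for mt-Nd1), for genes in their order on the mitochondrial genome. Filled markers are listed by the authors and the open marker (mt-Nd1 in GATA-1 2RA) is not. The dotted line is the 2-fold limit, and mt-Rnr1 in GATA-1 2RA lies far below mt-Nd1 in the same group.

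The proportions of the transcripts to each other were compared within each library, since a ratio of 2 read counts does not depend on the size factors. For each read of mt-Rnr1 there were 13 reads of mt-Nd1 in the control (95% counting interval 12.7 to 13.3), 10.5 with GATA-1 WT (10.1 to 11.0), 34.5 with GATA-1 2RA (32.8 to 36.2) and 16.3 with GATA-1 V205M (15.8 to 16.8). GATA-1 2RA lay above the other groups by more than 2-fold, whereas the columns within a group lay at 12.9 and 13.3 in the control and 16.4 and 16.1 in GATA-1 V205M. For each read of mt-Rnr1 there were 0.510, 0.462, 0.960 and 0.491 reads of mt-Nd4, in the same order of groups, so that mt-Nd4 too was high relative to the rRNA in GATA-1 2RA. The ratio of mt-Nd2 to mt-Rnr1 was 1.10, 1.30, 1.94 and 0.905. In GATA-1 2RA the rRNA was therefore low against all 3 messenger RNAs.

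The messages also shifted among themselves. For each read of mt-Nd2 there were 11.8 reads of mt-Nd1 in the control (95% counting interval 11.5 to 12.1), 8.05 with GATA-1 WT (7.75 to 8.37), 17.8 with GATA-1 2RA (17.2 to 18.5) and 18 with GATA-1 V205M (17.4 to 18.6). The mutant forms lay together above the control, and GATA-1 WT lay below it. The columns gave 11.8 and 12 in the control and 18.1 and 17.9 in GATA-1 V205M. Per read of mt-Nd4 there were 25.4, 22.8, 35.9 and 33.2 reads of mt-Nd1, with 26.1 and 23.2 in the columns of the control, the second inside the counting interval of GATA-1 WT (21.4 to 24.3). The mt-Nd1 to mt-Nd4 ratio therefore separates the mutant forms from the control but does not separate GATA-1 WT from it. The ratio of mt-Nd2 to mt-Nd4 was 2.15 in the control, 2.83 with GATA-1 WT, 2.02 with GATA-1 2RA and 1.84 with GATA-1 V205M. Its columns were 2.22 and 1.93 in the control and 1.73 and 2.0 in GATA-1 V205M, which overlap, so this ratio separates neither mutant from the control. These differences have no replicate check.

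**Figure D3:**
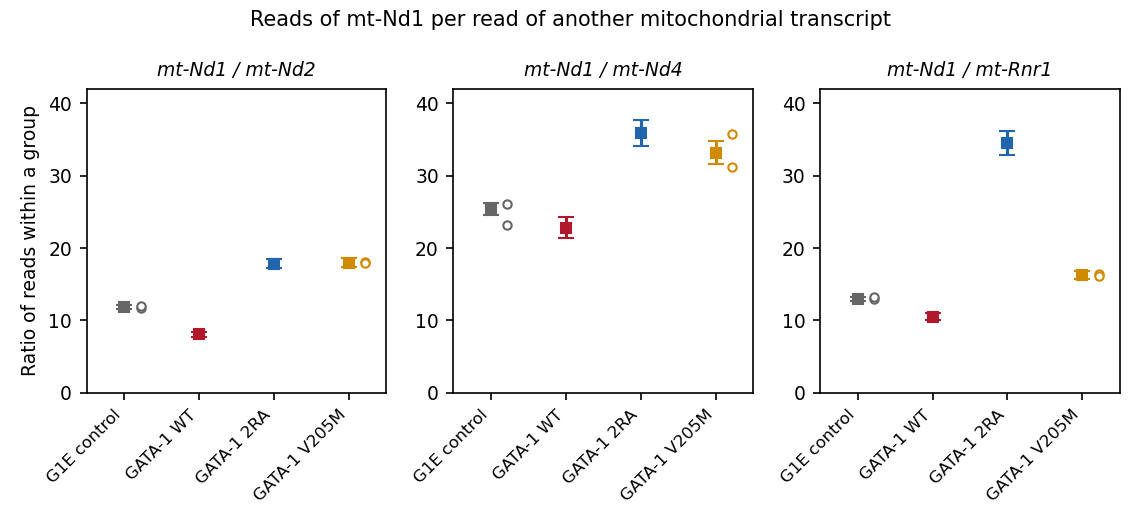
Reads of mt-Nd1 for each read of mt-Nd2, mt-Nd4 or mt-Rnr1 in the 4 groups (squares, pooled reads with 95% counting intervals; open circles, single count columns). The ratio to mt-Rnr1 is 34.5 in GATA-1 2RA against 10.5 to 16.3 in the other groups.

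GATA-1 2RA against GATA-1 WT was the only pair of GATA-1 forms whose table holds mitochondrial genes. Both listed genes, mt-Nd1 and mt-Tp, were higher in GATA-1 2RA, where 3.33% of tested genes were listed as higher and 4.04% as lower (7.38% in all). mt-Nd1 was 2.77-fold (95% counting interval 2.73 to 2.81) higher, and the authors' deposited table gives an adjusted p of 1.59e-08. mt-Tp was 5.75-fold (95% counting interval 3.27 to 10.8) higher, and the authors' deposited table gives an adjusted p of 0.00122. Of the members not listed in this pair, mt-Nd4 was 1.76-fold (1.62 to 1.90) and mt-Nd2 1.25-fold (1.19 to 1.32) the level with GATA-1 WT, and mt-Rnr1 stood at 84.4%. mt-Tp rests on the fewest reads of all and is the one member known only from this pair.

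GATA-1 V205M against GATA-1 WT and GATA-1 2RA against GATA-1 V205M list no mitochondrial gene, against 9.36% (3.70% higher, 5.65% lower) and 6.23% (3.60% higher, 2.62% lower) of tested genes listed. In the first of these pairs mt-Nd1 in GATA-1 V205M was 1.92-fold higher (95% counting interval 1.89 to 1.95), inside the 2-fold limit on the authors' scaling but past it on the 3 rescalings (log2 changes of 1.35 to 1.43), while mt-Nd4 was 1.31-fold, mt-Rnr1 1.24-fold and mt-Nd2 0.861-fold. Between the mutant forms, GATA-1 2RA was 1.44-fold for mt-Nd1, 1.45-fold for mt-Nd2 and 1.34-fold for mt-Nd4 that of GATA-1 V205M, and 0.680-fold for mt-Rnr1. That a pair lists no mitochondrial gene does not show that the groups are alike.

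The summed reads show how much of the counted RNA these transcripts take. Over the 1157 genes with a level in all 4 groups, mt-Nd1, mt-Nd2, mt-Nd4 and mt-Rnr1 together made up 16.4% of the scaled reads in the control (16.6% and 16.1% in its columns), 2.64% with GATA-1 WT, 8.61% with GATA-1 2RA and 6.20% with GATA-1 V205M (6.22% and 6.19%). mt-Nd1 alone made up 13.7%, 2.09%, 7.73% and 5.41%. The sum holds listed genes only, and in GATA-1 WT the globin Hbb-b1 alone reached 39108 scaled reads against 238 in the control. The part of such shifts in the shares was not tested. Replication-dependent and other genes whose symbol starts with Hist, whose RNAs mostly lack a poly(A) tail, were 6 higher and 0 lower in GATA-1 WT against the control, and 0 and 3 with either mutant. Against GATA-1 WT, 24 were lower with GATA-1 2RA and 25 with GATA-1 V205M, with none higher, where 4.04% and 5.65% of tested genes were listed as lower. These counts are out of 33 that have a row in some table, so genes listed nowhere are not in them, and the part in the results of how RNA without a poly(A) tail was captured was not tested.

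Most subunits of the respiratory chain and all proteins that copy, transcribe and translate the mitochondrial genome are encoded in the nucleus. Of 389 nuclear symbols on 9 lists, 77 had a row in any table. In GATA-1 WT against the control 26 were higher and 19 lower (median log2 change 1.09, against 1.23 over all listed genes), where 8.17% of tested genes were listed as higher and 4.86% as lower. These counts over all 9 lists are near those shares and set the nuclear genes as a whole apart in neither direction. Of all tested genes 13.0% were listed in either direction in this comparison, 7.46% for GATA-1 2RA and 8.15% for GATA-1 V205M against the control.

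Among nuclear subunits in GATA-1 WT, complex I had 2 higher and 1 lower of 52 symbols. Tmem126b, a complex I assembly factor, stood at 139 scaled reads against 26.2, Ndufb9, an accessory subunit, at 2342 against 1088, and the assembly factor Ndufaf4 at 77.5 against 200. Complexes II to V and cytochrome c had 4 higher and 2 lower of 71. Over all tested genes 8.17% were listed as higher and 4.86% as lower. The counts of both lists lay below these shares of their symbols, and how many of the symbols were tested is not known. Cox6b2 and Cox7a1, both tissue-restricted forms of cytochrome c oxidase subunits, stood at 404 against 48.5 and 23.9 against 3.11, while Uqcr11 of complex III stood at 54.8 against 199.

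Genes that act directly on mitochondrial DNA and RNA were few in the GATA-1 WT table. Tfb2m, the factor that opens the mitochondrial promoters with the RNA polymerase, was lower (35.9 against 97.6), and the thymidine kinase Tk2, which supplies nucleotides for mitochondrial DNA, was higher (74.9 against 24.5). The RNA processing list had 1 higher and 2 lower of 39, with the pseudouridine synthase Pus1 (46.6 against 123) and 1110008L16Rik (54.2 against 138) lower and the oligoribonuclease Rexo2 (1267 against 610) higher. All 3 listed genes of the mitochondrial ribosome (84 symbols), Mrpl42, Mrpl12 and Mrpl36, were lower, with log2 changes of -1.62, -1.23 and -1.16. Over all tested genes 4.86% were listed as lower and 8.17% as higher, and the 3 of 84 symbols lay below the share of lower genes. The biogenesis regulators had 1 higher and 3 lower of 13, the lower ones being Ppargc1b (6.30 against 45.3), Pprc1 (39.7 against 193), which both coactivate transcription of nuclear mitochondrial genes, and Myc (152 against 530). The higher one was Nrf1, a transcription factor for such genes, at 262 against 127.

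The mitophagy and clearance list had 9 higher and 0 lower of 26 (median log2 change 1.65). Over all tested genes in this comparison, 8.17% were listed as higher and 4.86% as lower. The mitochondrial ribosome list had a single direction too, with 0 higher and 3 lower of 84. Bnip3, a mitophagy receptor of the outer membrane, stood at 760 scaled reads against 35.7, the ATG8 protease Atg4d at 117 against 20 and the autophagy receptor Nbr1 at 539 against 107. The list thus holds genes of general autophagy as well as mitophagy receptors. Dynamics and import had 4 higher and 5 lower of 49, with Mff, which recruits the fission machinery, at 679 against 114, the matrix protease Lonp1, which degrades the mitochondrial DNA packaging protein among others, at 409 against 94.7, and the prohibitin Phb at 22 against 79.5. The tricarboxylic acid cycle had 4 higher and 2 lower of 29, with Idh2, the NADP-dependent isocitrate dehydrogenase of mitochondria, at 12.6 against 95.5, Aco1 at 338 against 116 and Sucla2 at 263 against 123.

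In GATA-1 V205M against the control the nuclear lists gave 12 higher and 5 lower of 389 symbols. Over all tested genes 4.83% were listed as higher and 3.32% as lower. Nuclear complex I (52 symbols), RNA processing (39 symbols) and the biogenesis regulators (13 symbols) had no listed gene. Cox7a1 stood at 53.5 scaled reads against 3.11, Chchd3, a protein of the crista junctions, at 1213 against 265, and the chaperonin Hspd1 at 10297 against 3778. All 3 listed genes of the tricarboxylic acid cycle (29 symbols), Dlst, Sucla2 and Idh3a, were higher, with log2 changes of 1.36, 1.28 and 1.18. The mitophagy and clearance list had 3 higher and 1 lower of 26, with Bcl2l13 at 856 against 269, Bnip3 at 111 against 35.7 and Wipi2 at 102 against 39.7.

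In GATA-1 2RA against the control the nuclear lists gave 8 higher and 16 lower of 389 symbols. Over all tested genes 4.86% were listed as higher and 2.61% as lower. No gene of the mitophagy and clearance list (26 symbols) was listed, where 7.46% of tested genes were listed in either direction. Of complexes II to V and cytochrome c (71 symbols), 6 were lower and 1 higher (median log2 change -1.45). Cox6b2 was lower at 12.9 against 48.5, Uqcr11 lower at 62.2 against 199, and Cox7a1 higher at 34.3 against 3.11. The mitochondrial ribosome list had 4 lower and 1 higher of 84 symbols. Mrps14 at 698 against 1881 and Mrpl4 at 57.9 against 148 were lower, and Mrpl33 at 277 against 115 was higher. Lrpprc, which binds and stabilises mitochondrial messenger RNA, was the 1 listed gene of RNA processing (39 symbols) and was higher, at 229 against 107. Its level is not known in the other groups, and its part in the levels of the mitochondrial transcripts was not tested. The mitochondrial DNA polymerase Polg was higher as well, at 271 against 133. Top1mt, the mitochondrial topoisomerase, was lower by 27.2-fold (95% counting interval 4.46 to 1117), on 1 read in GATA-1 2RA.

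Against GATA-1 WT, the mitophagy list had 6 lower and 0 higher with GATA-1 2RA, where 4.04% of tested genes were listed as lower and 3.33% as higher. With GATA-1 V205M it had 7 lower and 0 higher, where the shares were 5.65% and 3.70%. Bnip3 stood at 30.7 and 111 scaled reads in GATA-1 2RA and GATA-1 V205M against 760 in GATA-1 WT, and its homolog Bnip3l, known for clearing mitochondria from reticulocytes, at 231 and 298 against 1128. Both comparisons share the GATA-1 WT sample. In GATA-1 V205M the biogenesis regulators Ppargc1b, Myc and Pprc1 were all higher than in GATA-1 WT, with log2 changes of 2.31, 1.90 and 1.48, and so were the RNA processing genes Pus1, 1110008L16Rik and Ptcd3, at 1.51, 1.31 and 1.08. Between the mutant forms, 12 nuclear genes were lower and 1 higher in GATA-1 2RA (over all tested genes 2.62% were listed as lower and 3.60% as higher), among them Hspd1 (4304 against 10297), Hspe1 (433 against 990) and Phb2 (350 against 771), with Gabarap (489 against 177) the exception.

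**Figure D4:**
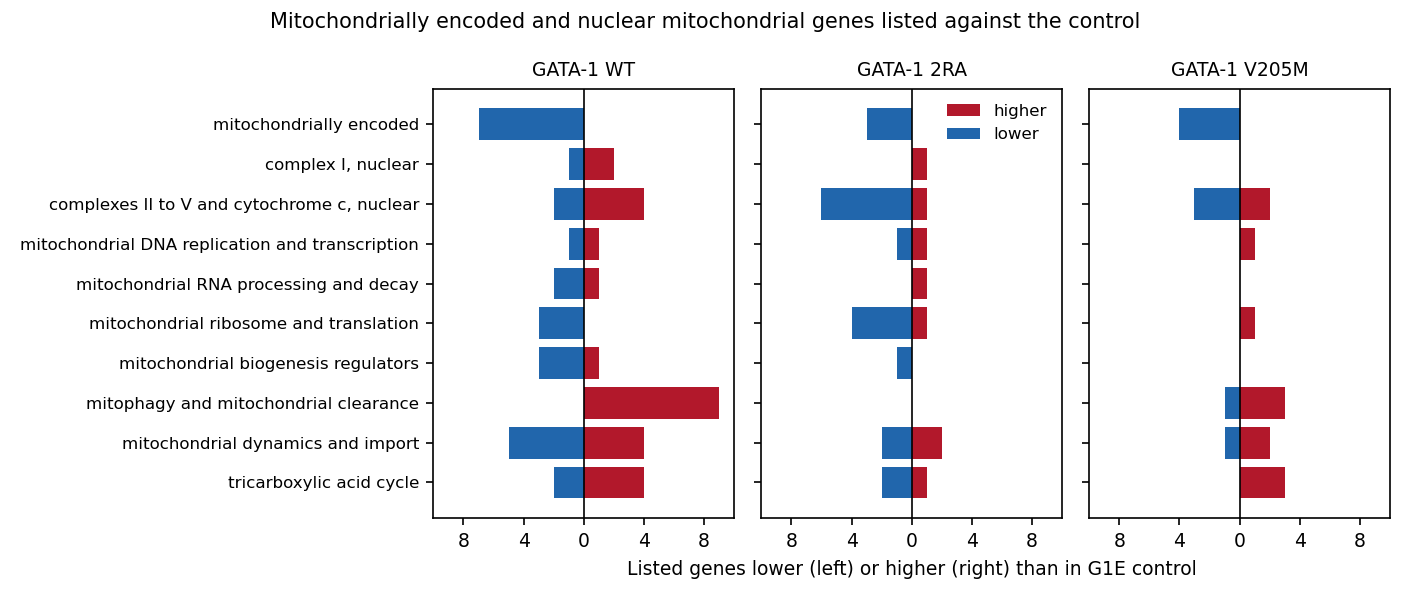
Number of genes of each list that the authors' tables list as higher (right, red) or lower (left, blue) than in the G1E control, for the WT, 2RA and V205M forms of GATA-1. The mitochondrially encoded genes lie on the lower side in each panel (7, 3 and 4), while the mitophagy list has 9 higher, none listed, and 3 higher with 1 lower.

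The nuclear genes whose pattern over the 4 groups lay nearest to the mean pattern of mt-Nd1, mt-Nd2, mt-Nd4 and mt-Rnr1 were Fam38a, Ankrd13a, Ptpn6, Plxna1 and Homer2. Likeness was the Euclidean distance between log2 levels centred over the 4 groups, among 988 genes with 100 or more scaled reads in their highest group. The distances were 0.080 for Fam38a, which encodes the mechanosensitive channel Piezo1, 0.25 for Ankrd13a, 0.28 for the phosphatase gene Ptpn6, 0.29 for Plxna1 and 0.37 for Homer2. Fam38a stood at 368, 111, 174 and 137 scaled reads in the G1E control and the WT, 2RA and V205M forms. The members themselves lay at 0.17 (mt-Nd4), 0.41 (mt-Nd2), 0.67 (mt-Nd1) and 0.69 (mt-Rnr1) from their own mean. The nuclear genes named here were picked as the nearest of 988, so their small distances follow from that choice. With 4 groups of 1 sample each this is a description of these libraries.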

How the data were processed

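Per the labels, an Illumina TruSeq kit was used for the RNA libraries. The tools TopHat, Cufflinks, Cuffdiff and deepTools and the build mm10 are named per the submitters' processing notes, with roles and versions not given in the sources used here, nor which tool made the tables. The deposited signal is the authors' mean of read counts divided by a size factor. The deposited fold is the ratio of 2 such group means, the deposited log2 value is its logarithm, and each deposited p-value has beside it an adjusted one (Benjamini-Hochberg) over 12931 genes, a number found from the ratio of both p-values, which gave a whole rank for 92.4% of rows.

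Whole reads were recovered from the deposited means, which was tested on simulated data. The 8 mitochondrial symbols were matched to GENCODE M21 (GRCm38, of which mm10 is the equivalent). Counting intervals (95%) are exact Clopper-Pearson intervals of pooled reads, moved to the ratio of the authors' levels. A pseudocount of 1 scaled read was added before taking log2. Levels were also rescaled in 3 ways, to the sum of the genes with a level in all 4 groups, to that sum without mitochondrial genes, and to a median change of 0 over these genes. The intervals do not cover the spread between cultures, and no test of the groups was possible with 1 sample each. Copies were searched with BLAST 2.17.0. An edgeR 4.0.16 quasi-likelihood fit (R 4.3.3) on the recovered reads, added after seeing the data, took its spread from the count columns.

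The members and gene lists were chosen with earlier results of these data known. Named genes are the members, the other listed mitochondrial genes, up to 3 listed genes per nuclear list and pair with the largest absolute log2 change, and the 5 genes of nearest pattern. Nrf1, named to complete a count, as well as Gata1, Hbb-b1, Klf1, the mast cell markers and Gm13340, fall outside this rule.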

Additional observations from a re-analysis of the deposited data

How the results depend on the processing

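The 16 listed changes of single mitochondrial genes pass 2-fold by the authors' limits, and the 3 rescalings made each of them larger. That none of them changed sign under other settings (pseudocount 0 or 10, 3 rescalings, single count columns) was thus nearly set in advance. Of the 12 unlisted changes, 10 kept their sign. The exceptions were mt-Rnr1 in GATA-1 2RA against GATA-1 WT, from -0.24 up to 0.26, and mt-Nd2 in GATA-1 V205M against GATA-1 WT, from -0.22 up to 0.27, both after rescaling. Rescaling matters because the genes with a level in all groups had a median log2 change of 0.86, 0.41 and 0.21 in the WT, 2RA and V205M forms against the control, a value that the authors' filter shapes. The median change of the listed mitochondrial genes was -2.36, -1.40 and -1.71 (the same order of forms) scaled to the sum of these genes, -2.58, -1.53 and -1.88 with mitochondrial genes left out of the sum, and -2.49, -1.49 and -1.61 with their median set to 0. It was -1.71, -1.20 and -1.48 with the first count column of the control alone and -1.53, -1.02 and -1.33 with the second. On the authors' scaling no listed mitochondrial gene was over 4-fold lower against the control in any of the 3 tables. Each of the 3 rescalings put at least 6 of the 7 past 4-fold with GATA-1 WT (mt-Nd1 at -2.71 to -2.93; the exception, mt-Nd6, was at -1.89 to -2.11), and mt-Rnr1 with GATA-1 2RA (-2.22 to -2.35; -2.02 with the first control column alone, which also put mt-Nd1 with GATA-1 WT at -2.08). With mitochondrial genes left out of the sum, mt-Nd2 with GATA-1 V205M also passed (-2.10). Over 4-fold, 1, mt-Tp, was higher in GATA-1 2RA against GATA-1 WT. With listed and unlisted genes counted together, 4 were higher and 1 lower in GATA-1 2RA against GATA-1 WT, 3 and 1 in GATA-1 V205M against GATA-1 WT, and 3 and 1 in GATA-1 2RA against GATA-1 V205M. Nuclear genes of the 9 lists changed over 4-fold were 9 higher and 3 lower in GATA-1 WT, 2 and 2 in GATA-1 2RA and 2 and 0 in GATA-1 V205M against the control, 1 and 5 in GATA-1 2RA and 2 and 3 in GATA-1 V205M against GATA-1 WT, and 0 and 2 between the mutants.

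The edgeR quasi-likelihood fit called 1834 of 2040 genes (89.9%) in GATA-1 WT, 1200 of 1580 (75.9%) in GATA-1 2RA and 1408 of 1813 (77.7%) in GATA-1 V205M against the control at an adjusted p below 0.05, and compares these libraries, not the conditions. It called 1552 of 1802 (86.1%) in GATA-1 V205M against GATA-1 WT and 1214 of 1550 (78.3%) between the mutants. Every mitochondrial gene with a level in both groups passed in these fits except mt-Nd1 in GATA-1 2RA against the control, with an edgeR adjusted p of 0.355. The fits covered only genes with a level in both groups, each already past the authors' limits in some pair. The shares called therefore do not stand for all expressed genes. No paired analysis was possible because each group is 1 sample and the labels carry no replicate numbers.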

Other observations

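Annotated near-identical nuclear copies of the mitochondrial genes were counted over listed and unlisted genes. Of the 13 protein genes of the mitochondrial genome, 6 have a row in a table and 7 do not. Among the 7 without a row, 6 have a copy in GENCODE M21 that aligns over 95% of their length at 95% identity or more, and among the 6 with a row none has. The longest alignments at 90% identity or more covered 49.1% of mt-Nd2 (Gm13339, chromosome 2), 63.6% of mt-Nd4 (Gm28439, chromosome 1), 58.0% of mt-Nd5 (Gm11407, chromosome 4), 100% of mt-Nd6 (Gm11408, chromosome 4, 93.6% identity) and 99.8% of mt-Cytb (Gm11410, chromosome 4, 92.9% identity). At 90% identity, 2 of the 6 genes with a row are thus matched over nearly their whole length, so the split depends on the identity asked for. For mt-Nd1, mt-Rnr1 and mt-Tp no such copy was found, while mt-Co1 is matched over its whole length by Gm13340 on chromosome 2 at 97.6% identity and mt-Co3 over 99.9% by Gm28437 on chromosome 1 at 100% identity. Gm13340 was itself listed, and as lower, when GATA-1 WT was set against the control, at 59.2 against 125 scaled reads. The sources used here do not say whether reads matching more than 1 place were counted, and the part of this in the levels and in which genes were listed was not tested.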
